A study of Mus musculus with 8 samples.

Results

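The inflammasome genes described here were Nlrp3, Nlrc4, Aim2, Pycard, Casp1, Casp4, Gsdmd, Il1b, Il18 and P2rx7, which are 10 of the 55359 gene rows of the deposited count table. They were taken by name and had been chosen by their measured levels in the PMC lines and the primary cultures, so that the difference between lines and primary cultures is given for them as a description, without a test. RNA was sequenced from 8 cultures of murine peritoneal mast cells (PMCs), all untreated and all from wild-type mice of the mixed strain C57BL/6x129/Sv. Primary WT PMCs came from 3 female and 3 male mice. PMC-303 and PMC-306 are lines that arose without a deliberate transforming step in ageing cultures. Each was sequenced as 1 library, and the labels give no sex for them. The paper describes the karyotype of PMC-306 as male. Both lines were grown with less serum and less stem cell factor (SCF) than the primary cultures, so that medium and line formation cannot be told apart in these data. The paper reports that PMC-306 cells kept in the richer medium had unaltered mRNA of mast cell proteases and Mrgprb2. It gives no such values for the genes described here. The mixed strain means that single cultures may carry different parental alleles of any of these genes, which were not analysed here.

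An inflammasome is a cytosolic complex in which a sensor recognises a microbial or danger signal and recruits caspase-1, usually through the adaptor ASC. Active caspase-1 cuts the precursors of the cytokines IL-1β and IL-18 and opens gasdermin D, whose fragments form pores in the plasma membrane, and caspase-11, the product of Casp4 in the mouse, cuts gasdermin D after binding cytosolic lipopolysaccharide. Mast cells are long-lived tissue cells best known for granule release through the IgE receptor, and ATP from damaged cells reaches them through the channel P2X7, whose potassium efflux is a classical trigger of NLRP3.

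The members lie on 8 chromosomes. On GRCm39, the build to which the reads were aligned, Casp1 occupies chr9:5298508-5307290 and Casp4 chr9:5308828-5336783, both on the plus strand, so that 1537 bases separate the end of Casp1 from the start of Casp4. Nlrp3 lies at chr11:59432394-59457782 on the plus strand. Promoter sequences are shown for these genes because they had the widest differences between cultures. RefSeq's table, whose assembly is GRCm38.p6, holds 12 promoters for 9 members and none for Gsdmd, and all 12 matched GRCm39 exactly at a single place. The 250 bases before a listed start were searched on both strands for the letters TGANTCA of AP-1, AGATAA of GATA factors, TTCNNNGAA of the GAS element, GAAANNGAA of IRF factors, GGGNNTTCC of NF-kB and GAGGAAG of PU.1, where N is any base, and capitals mark the matches. The motifs were chosen after the levels had been seen.
Nlrp3, first start, chr11:59432145-59432394, plus strand: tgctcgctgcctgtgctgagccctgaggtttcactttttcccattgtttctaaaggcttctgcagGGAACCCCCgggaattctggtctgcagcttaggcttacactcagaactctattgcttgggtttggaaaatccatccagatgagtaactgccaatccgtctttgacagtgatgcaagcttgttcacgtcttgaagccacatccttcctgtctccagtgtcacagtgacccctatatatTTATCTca
Nlrp3, second start, chr11:59433262-59433511, plus strand: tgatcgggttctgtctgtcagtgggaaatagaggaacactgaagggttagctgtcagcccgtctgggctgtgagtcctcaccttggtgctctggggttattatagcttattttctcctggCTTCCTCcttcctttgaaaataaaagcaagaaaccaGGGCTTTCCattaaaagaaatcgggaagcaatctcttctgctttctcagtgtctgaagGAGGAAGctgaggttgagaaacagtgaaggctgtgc
Casp1, chr9:5298267-5298516, plus strand: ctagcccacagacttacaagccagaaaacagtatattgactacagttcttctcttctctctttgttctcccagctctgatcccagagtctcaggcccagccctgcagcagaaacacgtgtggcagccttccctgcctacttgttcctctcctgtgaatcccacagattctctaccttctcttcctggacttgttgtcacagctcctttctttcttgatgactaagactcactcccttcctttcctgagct
Casp4, chr9:5308599-5308848, plus strand: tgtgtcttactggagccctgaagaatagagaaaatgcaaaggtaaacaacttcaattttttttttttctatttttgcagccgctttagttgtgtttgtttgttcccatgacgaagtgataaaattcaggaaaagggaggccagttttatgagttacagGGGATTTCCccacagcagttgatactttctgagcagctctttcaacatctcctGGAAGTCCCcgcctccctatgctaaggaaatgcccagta
The NF-kB letters stood in both Nlrp3 windows, 185 and 94 bases before the start when counted to the first base of the match, and at 2 places in the Casp4 window. Of all 32851 promoters of this length in the table, 4.98% held these letters, against 4 of the 12 windows of members, of which 2 are overlapping windows of Casp4. The second Nlrp3 window also held PU.1 at 2 places, letters found in 10.6% of all promoters and in 3 of the 12. GATA letters stood in the first Nlrp3 window and in 2 of the 12 windows, against 9.99% of all. AP-1 letters stood in 1 of the 12 windows, that of a P2rx7 start, against 6.75%. The Casp1 window held none of these motifs, and GAS and IRF letters, present in 7.02% and 7.13% of all promoters, stood in none of the 12. These are matches of letters in a window and do not show that a factor binds there.

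Levels are given as CPM, the estimated count of a gene relative to a library size that was scaled by TMM, the trimmed mean of M values, and CPM does not account for gene length. The libraries held 15918757 to 24180226 counts. In libraries of this size, 3 counts correspond to 0.123 to 0.187 CPM. For a count of 0, they are about the 1-sided 95% upper limit by counting error alone. All 8 mast cell markers exceeded 1 CPM in at least 1 library. Their summed level was 43251 CPM in PMC-303, 40047 CPM in PMC-306 and 46570 to 73195 CPM in the primary cultures. Neutrophil, B cell, T cell and fibroblast markers summed to at most 0.409 CPM per cell type in any library. Basophil markers summed to 269 CPM in PMC-303, 291 CPM in PMC-306 and 279 to 578 CPM in the primary cultures, nearly all from Cd200r3. Eosinophil markers summed to 0.329, 1.08 and 0.571 to 2.45 CPM in the same order. Dendritic cell and MHC class II markers summed to 0.823, 2.93 and 1.16 to 2.45 CPM, highest in PMC-306. The 10 macrophage and monocyte markers summed to 9.96 CPM in PMC-303 and 9.86 to 70.5 CPM in the primary cultures but to 681 CPM in PMC-306, where Adgre1 (426 CPM) and Ccr2 (240 CPM) made up nearly the whole sum. Of the remaining macrophage and monocyte markers, Lyz2 (1.13 CPM), Csf1r (0.0982 CPM) and Cd14 (0.0491 CPM) were near 0 in PMC-306. C1qa and C1qb were at 0 there, and Mrc1 was at 0 in both lines. The Cd68 level of PMC-306 was 13.9 CPM, against 1.48 to 17.8 CPM in the primary cultures. In such bulk samples, fewer cells of a type and less RNA per cell cannot be told apart.

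Per transcript length, P2rx7, Pycard, Aim2 and Casp1 were the most abundant members in primary PMCs. On the TPM scale, which divides by transcript length, the mean of the 6 primary cultures was 87.0 ± 18.3 (SD, n = 6) for P2rx7, 31.8 ± 3.52 for Pycard, 30.4 ± 6.43 for Aim2 and 19.5 ± 7.15 for Casp1. P2rx7 stood clear of the others, its lowest primary culture (73.2 TPM) exceeding the highest of Aim2 (39.4 TPM), whereas the range of Aim2 overlapped those of Pycard and of Casp1. Gsdmd (6.96 ± 2.47 TPM), Casp4 (2.80 ± 0.908 TPM) and Nlrp3 (2.26 ± 1.5 TPM) followed, with overlap of Gsdmd with Casp1 and of Casp4 with Nlrp3. Il18 averaged 0.680 ± 0.359 TPM, Il1b 0.0282 ± 0.0441 TPM and Nlrc4 0.00642 ± 0.0116 TPM. The untreated cells thus held message for AIM2, the adaptor, caspase-1 and the pore protein and almost none for the cytokine substrates.

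**Figure D1:**
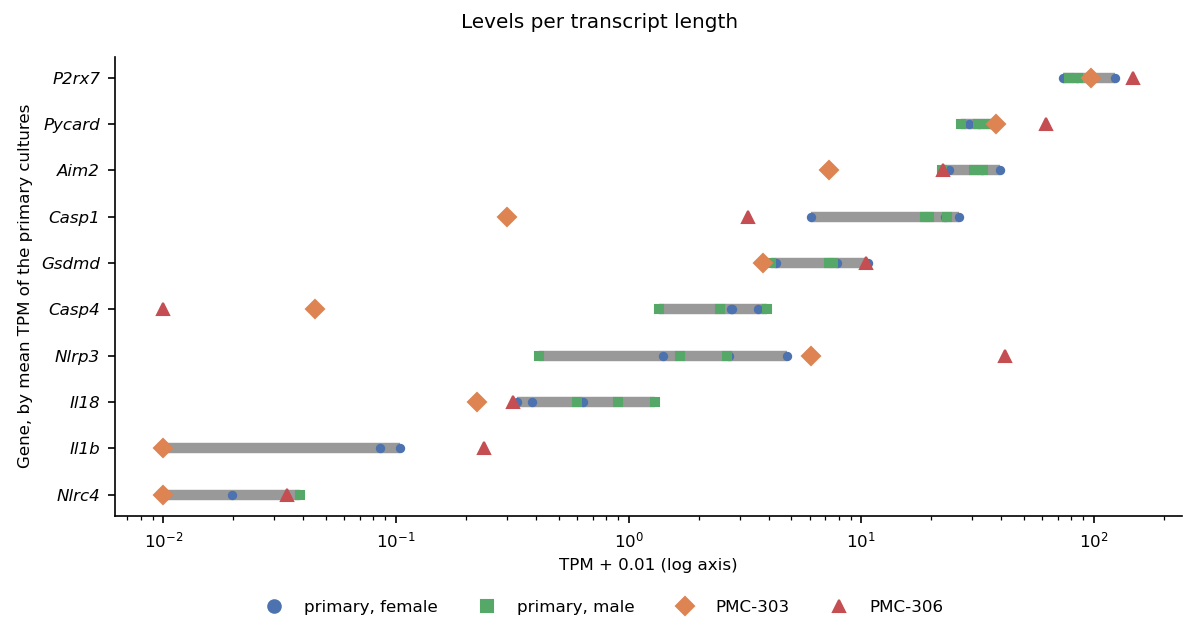
Level per transcript length of each member, as TPM + 0.01 on a log axis, with the grey bar spanning the 6 primary cultures and symbols for single libraries. P2rx7 had the highest mean in primary cultures (87.0 TPM), and PMC-306 lay far to the right of the primary bar for Nlrp3 (41.3 TPM) and to the left for Casp1 (3.24 TPM).

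Nlrp3, the sensor of potassium efflux and membrane damage, was by far highest in PMC-306. Its level was 14.1, 5.18 and 6.12 CPM in female cultures 1 to 3, 9.61, 6.09 and 1.89 CPM in male cultures 1 to 3, 14.1 and 119 CPM in PMC-303 and PMC-306. PMC-303 thus lay at the upper edge of the primary range, with 14.08 CPM against 14.15 CPM in female culture 1, while PMC-306 stood above every other library. The level in PMC-306 was 16.6-fold the primary mean (7.17 ± 4.21 CPM, SD, n = 6) and 8.46-fold that in PMC-303. These values rest on 2426 counts in PMC-306, 342 in PMC-303 and 36 to 308 in the primary libraries, and the primary cultures themselves spanned 7.49-fold. Adgre1 and Ccr2 were highest in the same library, PMC-306. Cd68 (13.9 CPM) lay within the primary range there, and Lyz2, Csf1r, Cd14, C1qa and C1qb were at or near 0. The part of these transcripts in the Nlrp3 level was not tested. The transcripts Nlrp3-201 and Nlrp3-202, which begin at the first and the second start shown above to within 1 base, were both assigned counts in the lines, 1352 and 1003 in PMC-306 and 207 and 107 in PMC-303. In the primary cultures the share of Nlrp3-201 ran from 0% to 100%, and at these low counts the assignment between transcripts is an estimate.

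Aim2, the sensor of cytosolic DNA, went the other way. Female cultures 1 to 3 had 51.7, 40.8 and 30.3 CPM, male cultures 1 to 3 had 41.3, 41.2 and 33.4 CPM, and the lines had 9.26 CPM (PMC-303) and 25.4 CPM (PMC-306). Both lines lay below all 6 primary cultures, PMC-303 at 23.3% and PMC-306 at 64.0% of the primary mean (39.8 ± 7.46 CPM). On the TPM scale, PMC-306 (22.4 TPM) lay within the primary range, just above male culture 3 (22.2 TPM). The canonical transcript of Aim2 took 82.1% of the gene's counts in PMC-303, 70.9% in PMC-306 and 71.9% to 79.1% in the primary cultures.

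Nlrc4, which assembles with NAIP proteins bound to flagellin or secretion system proteins, was at the limit of detection throughout. It had 0 counts in PMC-303 and in 4 of the 6 primary libraries, 1 count in female culture 2 and 2 counts in both male culture 3 and PMC-306, and no fold is given. Its partners were abundant. Naip2 ranged from 82.4 to 131 CPM over the 8 libraries, Naip5 from 59.9 to 124 CPM and Naip6 from 16.8 to 92.9 CPM, whereas Naip1 had at most 0.101 CPM. The Naip genes are close copies of each other, so that the division of reads among them is uncertain.

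Pycard, which encodes the adaptor ASC, varied little among primary cultures. It had 26.0, 29.9 and 24.6 CPM in female cultures 1 to 3, 25.5, 28.4 and 29.0 CPM in male cultures 1 to 3, 29.6 and 50.2 CPM in PMC-303 and PMC-306. The primary cultures spanned 1.21-fold, PMC-303 lay within them and PMC-306 stood above all at 1.84-fold the primary mean (27.2 ± 2.13 CPM). Its canonical transcript took 66.5% of counts in PMC-303, 69.2% in PMC-306 and 65.9% to 68.4% in the primary cultures, so that the balance of the 2 transcripts differed little.

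Among the members detected in every primary culture, the inflammatory caspases had the lowest levels in the lines relative to primary PMCs. Casp1, the effector protease of the canonical inflammasome, had 8.68, 36.9 and 30.5 CPM in female cultures 1 to 3 and 26.1, 32.0 and 31.3 CPM in male cultures 1 to 3. PMC-306 had 3.78 and PMC-303 0.370 CPM, on 77 and 9 counts against 189 to 841 counts in the primary libraries. Both lines lay below all primary cultures, including female culture 1, which was itself far below the other 5, and the levels were 13.7% and 1.34% of the primary mean (27.6 ± 9.89 CPM). PMC-306 exceeded PMC-303 10.2-fold. The canonical Casp1 transcript took all 9 counts in PMC-303, 67.5% in PMC-306 and 84.1% to 87.7% in the primary cultures, and 2 transcripts with retained introns took most of the remainder.

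Casp4, which encodes caspase-11, was nearly absent from the lines. It had 3.996, 2.86 and 2.90 CPM in female cultures 1 to 3, 3.63, 2.92 and 1.68 CPM in male cultures 1 to 3, a single count in PMC-303 and no count in PMC-306, against 32 to 87 counts in the primary libraries. Relative to the primary mean (3.00 ± 0.796 CPM), Casp4 was at least 20.3-fold lower in PMC-306, taking 3 counts as the limit. In PMC-303 it was 72.8-fold lower with a 95% exact Poisson interval of 13.1-fold to 2876-fold, which covers counting error in that library only.

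Expressed genes on either side of the caspase pair did not share these levels, but they lie far from it. They were looked at after the levels of Casp1 and Casp4 had been seen, as the 3 nearest genes on each side that averaged 5 CPM or more in the primary cultures. The nearest of them are not adjacent to the pair: Msantd4 ends at chr9:4386892, before Casp1, and Dync2h1 starts at chr9:6928503, beyond Casp4. Relative to the primary mean, Msantd4 stood at 84.1% in PMC-303 and 76.5% in PMC-306, Kbtbd3 at 72.9% and 88.9%, and Aasdhppt at 95.1% and 98.8%. Beyond Casp4, Dync2h1 stood at 81.9% and 160%, Dcun1d5 at 131% and 118%, and the metalloproteinase gene Mmp27 at 42.5% and 51.4%. Casp12, a further inflammatory caspase, had no count in any of the 8 libraries.

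**Figure D2:**
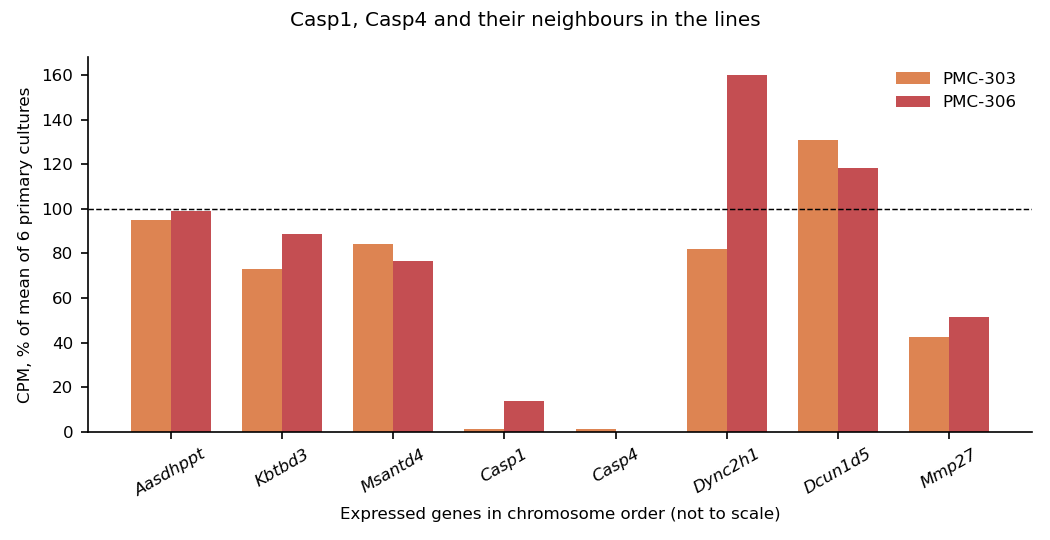
Level of Casp1, Casp4 and the 3 nearest expressed genes on each side in the 2 lines, as a percentage of the mean of the 6 primary cultures (dashed line), with bars for single libraries and genes in chromosome order. Casp1 stood at 1.34% in PMC-303 and 13.7% in PMC-306 while the 6 neighbours stood between 42.5% and 160%, and the missing bar of Casp4 in PMC-306 is a count of 0. Spacing is not to scale, since Msantd4 ends at chr9:4386892 and Dync2h1 starts at chr9:6928503.

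Gsdmd, the pore-forming substrate of both caspases, was lower in PMC-303 and within the primary range in PMC-306. It had 8.73, 5.71 and 9.91 CPM in female cultures 1 to 3, 8.89, 7.03 and 6.08 CPM in male cultures 1 to 3, 3.95 and 8.94 CPM in PMC-303 and PMC-306. PMC-303 lay below all 6 primary cultures at 51.1% of their mean (7.73 ± 1.70 CPM).

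The cytokine substrates were close to undetected in all cultures. Il1b had 5 counts (0.246 CPM) in PMC-306, 2 counts in each of female cultures 2 and 3 and none in the other 5 libraries, including PMC-303. Il18 had 5 to 18 counts in the primary libraries (0.220 to 0.944 CPM, highest in male culture 3), 4 counts in PMC-306 (0.196 CPM) and 3 counts in PMC-303 (0.123 CPM). The Il18 level of PMC-303 was 3.49-fold below the primary mean with a 95% exact Poisson interval of 1.20-fold to 16.9-fold for counting error, which shows how little these counts resolve.

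P2rx7, the ATP-gated channel upstream of NLRP3, remained strongly expressed in the lines. Female cultures 1 to 3 had 241, 286 and 378 CPM, male cultures 1 to 3 had 267, 236 and 317 CPM, the line PMC-303 had 302.7 CPM and the line PMC-306 had 467 CPM. PMC-303 lay within the primary range, and PMC-306 lay above it at 1.63-fold the primary mean (287 ± 53.8 CPM). The canonical transcript of P2rx7 took 81.0% of counts in PMC-303, 85.4% in PMC-306 and 75.7% to 81.9% in the primary cultures.

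**Figure D3:**
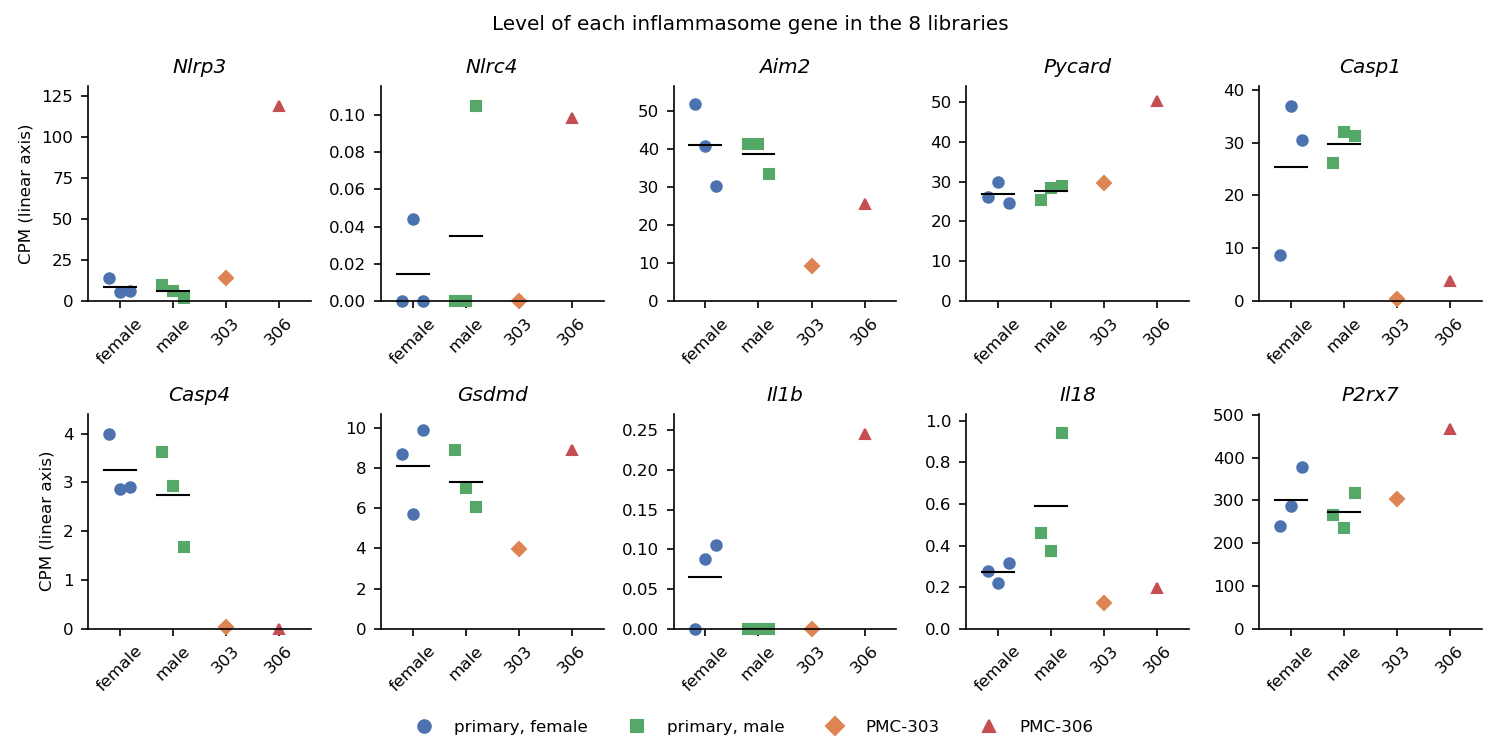
CPM of each member in each library on linear axes that start at 0 and differ between genes, with points for single libraries and horizontal lines for the mean of 3 female or 3 male primary cultures. PMC-306 stood above all primary cultures for Nlrp3, Pycard and P2rx7, both lines stood below them for Aim2, Casp1 and Casp4, and the axes of Nlrc4 and Il1b end below 0.3 CPM.

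Of the 10 members, 7 passed the filter on low counts, and Nlrc4, Il1b and Il18 did not. Among these 7, PMC-303 lay above all 6 primary cultures for 0 and below them for 4 (Aim2, Casp1, Casp4 and Gsdmd), where 33.4% and 30% of the 14525 genes that passed did so. PMC-306 lay above for 3 (Nlrp3, Pycard and P2rx7) and below for 3 (Aim2, Casp1 and Casp4), against 31.9% and 32.3% of all genes. Both lines lay above for 0 and below for 3, against 22.9% and 20.1%. As the members were chosen on this contrast and some passed the filter only through their level in the primary cultures, nothing is read from these shares. The median difference of lines minus primary cultures was -0.34 over the 7 members and -0.01 over all genes on the log2 scale. With libraries scaled by total counts, under which the median over all genes shifted up by 0.11, or on the TPM scale, Nlrp3 and Pycard in PMC-303 also lay above the primary range. The 2 genes lay above it as well against the male cultures alone, and Nlrp3 did so without female culture 1, the primary culture with the highest Nlrp3.

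The comparison of female with male primary cultures was not used to choose the members and was tested with limma on log2(CPM + 0.1). None of the 7 members that passed the filter was called, with 0 at an adjusted p under 0.05 and 0 at an unadjusted p under 0.05, also 0 at an adjusted p under 0.05 by limma-voom. Of all 13693 genes tested, 6 (0.0438%) passed the adjusted threshold and 456 had an unadjusted p under 0.05, so that 0 among 7 genes is not particular to the members. The largest of the 7 differences were those of Nlrp3, 0.66 higher in female cultures on the log2 scale (SE 0.64, adjusted p = 0.999987), and Casp1, -0.47 (SE 0.51, adjusted p = 0.999987), with 3 cultures per sex. At this size, a difference within such errors could not be detected, and equality of the sexes is not shown. Female culture 1 held the highest Nlrp3, Aim2 and Casp4 and the lowest Casp1 of the 6 primary cultures.

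For Casp1, Nlrp3 and Aim2, the 3 members with the widest range over the 8 libraries among those that averaged 5 CPM or more, the genes with the most similar pattern were sought among 10086 genes by Pearson's r of log2(CPM + 0.1), as a description over 8 libraries that share depth and scaling. The pattern of Casp1 was closest to Abhd5 (r = 0.986), Rab5b (r = 0.984) and Pcmtd1 (r = 0.983), that of Nlrp3 to Gm9385 (r = 0.971), Kat5 (r = 0.970) and Fads1 (r = 0.968), and that of Aim2 to Erc1 (r = 0.985), Lilr4b (r = 0.981) and Gadd45a (r = 0.981). The size of the differences was not alike. Abhd5 ran from 22.1 and 27.4 CPM in PMC-303 and PMC-306 to 38.9 CPM in male culture 3, a far narrower range than that of Casp1, whereas Fads1 reached 215 CPM in PMC-306 against 37.7 to 89.9 CPM in the primary cultures.

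The surrounding pathway was examined with a list of 108 further genes, of which 106 were in the table and 67 passed the filter. Both lines together were compared with the 6 primary cultures by limma, with Benjamini-Hochberg adjustment over all 14525 genes. Of the 67 genes, 6 were higher (8.96%, against 18.3% of all genes) and 21 lower (31.3%, against 15.5% of all genes) at an adjusted p under 0.05. With total-count scaling, 7 were higher and 13 lower, and the share of higher genes among all calls moved from 54.1% to 67.2%. The list's median difference was -0.19. The list was drawn up with earlier results of these data known, so the tests of its genes are not independent of that choice. Nothing about the pathway is read from these shares or this median. The test rests on 2 lines as replicates of each other, and of the 25 called genes that averaged 5 CPM or more, 8 kept their call without each library in turn while 14 lost it without PMC-306 and 10 without PMC-303.

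Among 8 other sensors tested, 4 were lower and none higher, where 15.5% of all genes tested were lower and 18.3% higher. The same shares of all genes apply to the counts of each role below, from which nothing is read about a role. Nlrp1b, a sensor of protease activity, had 9.09, 10.6 and 0.633 CPM in female cultures 1 to 3, 8.38, 13.1 and 8.55 CPM in male cultures 1 to 3, 0.0412 and 1.08 CPM in PMC-303 and PMC-306. Its difference was -3.97 on the log2 scale (SE 1.15, limma adjusted p = 0.0287), but female culture 3 lay below PMC-306, and the call was lost without any of 6 single libraries, PMC-303 among them. Naip2 (-0.39, SE 0.11), Naip5 (-0.68, SE 0.19) and Nlrx1, a mitochondrial NOD-like receptor (-0.53, SE 0.17), were lower by smaller amounts. The call of Naip2 was lost without PMC-306 and that of Naip5 without either line. The call of Nlrx1 was lost without any of 6 single libraries, both lines among them, and was kept under 5 of 16 alternatives. Nlrc3 (0.13, SE 0.22), Naip6 (0.05, SE 0.52) and Nlrp1a (-2.49, SE 1.03) did not pass the test.

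Of the AIM2-like receptors, which share a DNA-binding domain with AIM2, 2 of 12 were tested and neither passed. Ifi203 had 7.65 CPM in male culture 3, 10.5 CPM in PMC-306 and at most 0.102 CPM in the other 6 libraries. Mndal had 2.54 CPM in male culture 3, 5.22 CPM in PMC-306 and at most 0.255 CPM elsewhere, so that the same libraries held both. These genes are near-identical copies within a cluster, and the division of reads among them is uncertain.

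Of 12 regulators of the sensors tested, 1 was higher and 3 were lower, and the other 8 did not pass the test. Txnip, a thioredoxin-binding protein that can associate with NLRP3, was lower by 0.91 on the log2 scale (SE 0.22, limma adjusted p = 0.0129), with 237 and 284 CPM in PMC-303 and PMC-306 against 389 to 672 CPM in the primary cultures. Nek7, a kinase that NLRP3 binds during assembly, was lower by 0.35 (SE 0.10) and Mark4, a microtubule-associated kinase, by 0.53 (SE 0.17), calls that were lost without either line. The call of Txnip was lost without PMC-303. Brcc3, which removes ubiquitin from NLRP3, was higher by 0.39 (SE 0.09), but not without PMC-306. Dpp8 (-0.07, SE 0.07) and Dpp9 (-0.03, SE 0.09), the peptidases that hold NLRP1 inactive, and Serpinb1a, an inhibitor of granule proteases and caspases (-0.19, SE 0.19), did not pass.

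Among the other caspases and death adaptors, Casp8, the initiator caspase downstream of death receptors, was higher in the lines. It had 90.2 and 108 CPM in PMC-303 and PMC-306 against 58.0 to 68.7 CPM in the primary cultures, a difference of 0.64 on the log2 scale (SE 0.09, limma adjusted p = 0.00107), and its call was kept under all 16 alternatives. The necroptosis genes Ripk1 (-0.10, SE 0.08), Ripk3 (0.08, SE 0.22) and Mlkl (-0.01, SE 0.26) did not pass the test.

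**Figure D4:**
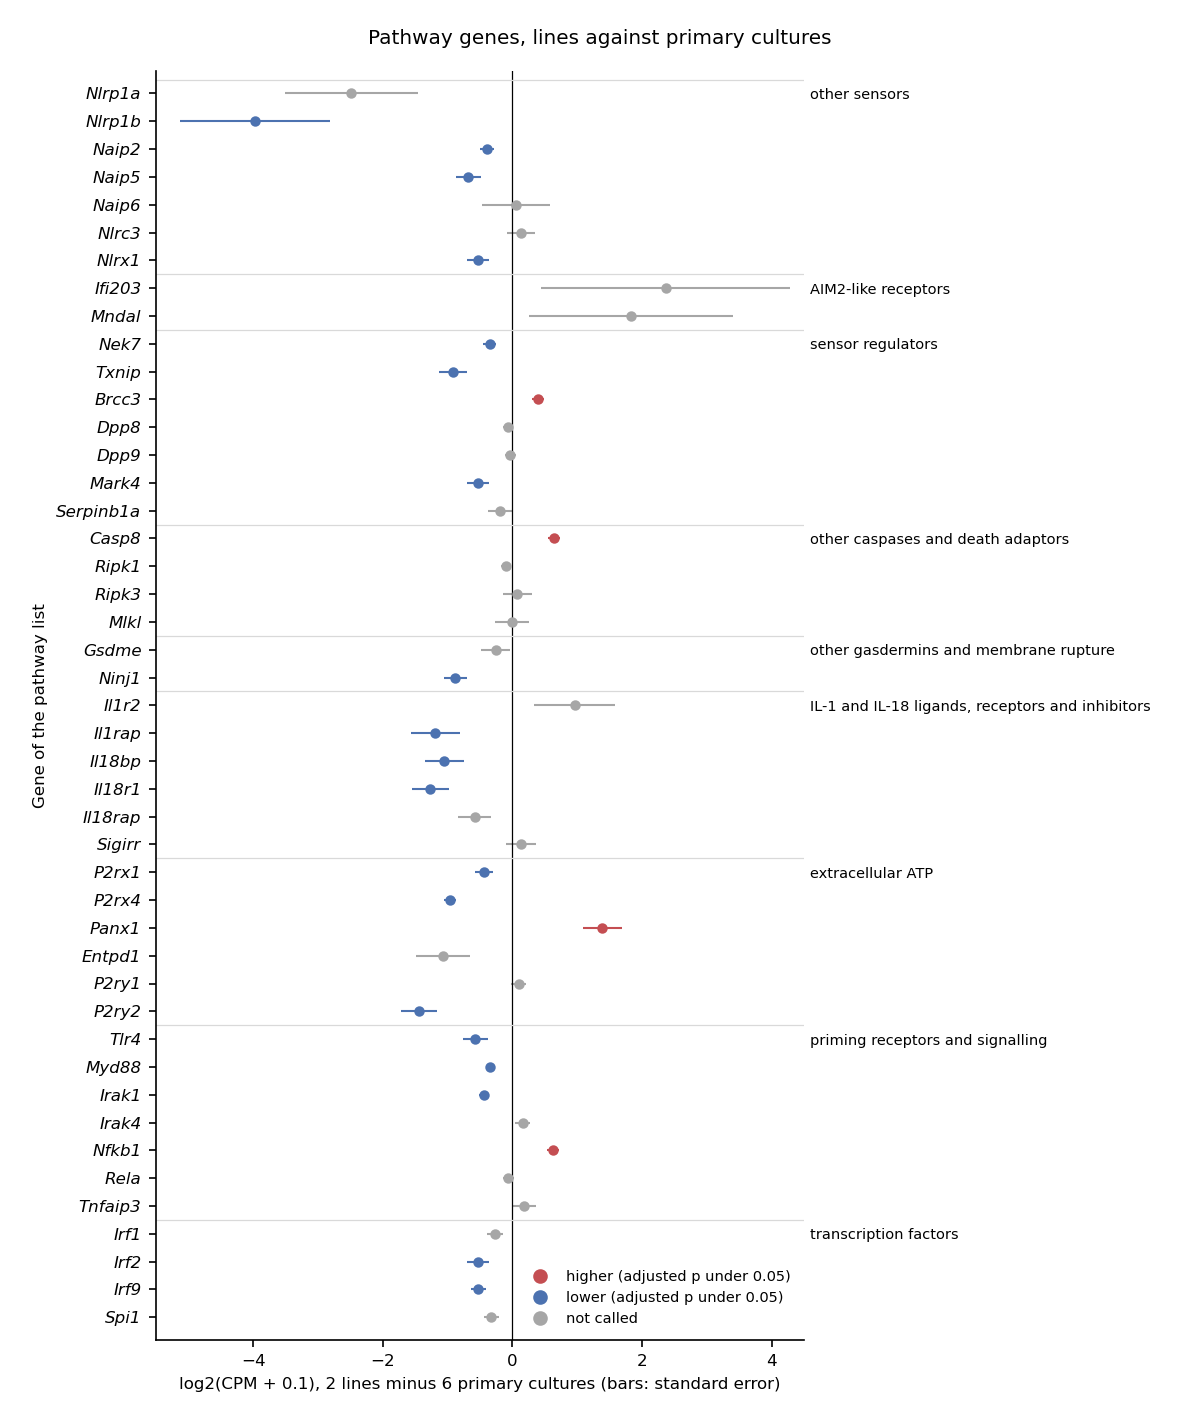
Difference of the 2 lines from the 6 primary cultures for tested genes of the pathway list described in the text, except P2rx6, Tlr2, Pstpip1 and Nod2, as log2(CPM + 0.1) with standard errors, ordered by role. Red points were higher and blue points lower at an adjusted p under 0.05, with Panx1 (1.39) the highest of the red and Nlrp1b (-3.97) the lowest of the blue.

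Beyond Gsdmd, only 2 of 9 genes of the gasdermin and membrane rupture group passed the filter. Ninj1, whose product ruptures the membrane of dying cells, was lower by 0.88 on the log2 scale (SE 0.17, limma adjusted p = 0.00533), with 49.4 and 36.3 CPM in PMC-303 and PMC-306 against 60.6 to 93.0 CPM in the primary cultures. Gsdme, a further gasdermin, had 29.8 and 44.2 CPM against 36.3 to 63.2 CPM and did not pass (-0.26, SE 0.22).

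On the receiving side of the cytokines, 3 of 7 genes tested were lower and none higher. Il18r1, the ligand-binding chain of the IL-18 receptor, had 20.1 and 36.2 CPM in PMC-303 and PMC-306 against 44.1 to 83.1 CPM in the primary cultures (-1.26, SE 0.28, limma adjusted p = 0.00897). Il18bp, the soluble inhibitor of IL-18 (-1.05, SE 0.30), and Il1rap, the accessory chain shared by the IL-1 and IL-33 receptors (-1.19, SE 0.38), were also lower. The calls of these 3 genes were lost without 1 of the lines or, for Il18bp, without either, and Il1rap differed by only -0.48 without PMC-306 and kept its call under 6 of 16 alternatives. Il18rap (-0.58, SE 0.25), the decoy receptor gene Il1r2 (0.96, SE 0.63) and the inhibitory receptor gene Sigirr (0.13, SE 0.23) did not pass.

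In the group of extracellular ATP, 1 of 7 genes was higher and 4 were lower. P2rx4, the neighbour of P2rx7 and also an ATP-gated channel, had 218 and 246 CPM in PMC-303 and PMC-306 against 417 to 484 CPM in the primary cultures, lower by 0.96 on the log2 scale (SE 0.09, limma adjusted p = 0.000155) and under all 16 alternatives. P2rx7 itself lay within or above the primary range, so that the ratio of the neighbouring channels in the lines differed from that in primary PMCs. P2rx1, an ATP-gated channel (-0.44, SE 0.14), and P2ry2, a G protein-coupled nucleotide receptor (-1.44, SE 0.27), were lower, as was P2rx6 (-2.33, SE 0.54), named after its values were seen, on at most 2.33 CPM. Panx1, whose channel releases ATP, was higher by 1.39 (SE 0.30), from 2.43 to 5.98 CPM in the primary cultures to 9.92 and 11.5 CPM. The calls of P2rx1 and Panx1 were lost without PMC-306, and that of P2rx1, -0.24 without it, was kept under 6 of 16 alternatives. The ATP-degrading enzyme gene Entpd1 (-1.07, SE 0.41) and P2ry1 (0.09, SE 0.11) did not pass.

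Genes that prime the inflammasome showed 1 of 12 higher and 4 lower. Nfkb1, the precursor of an NF-kB subunit, had 170 and 145 CPM in PMC-303 and PMC-306 against 90.4 to 108 CPM in the primary cultures (0.63, SE 0.09, limma adjusted p = 0.0014). Irak1 (-0.44, SE 0.08), Myd88 (-0.34, SE 0.08) and Tlr4 (-0.57, SE 0.19), which carry the lipopolysaccharide signal, were lower, as was Tlr2 (-3.06, SE 0.65), named after its values were seen, on at most 2.64 CPM. The calls of Irak1 and Nfkb1 were kept under all 16 alternatives, that of Tlr4 under 4, and that of Myd88 was lost without PMC-306. Irak4 (0.16, SE 0.11), Rela (-0.06, SE 0.09) and the NF-kB inhibitor gene Tnfaip3 (0.18, SE 0.17) did not pass. Of 10 transcription factors tested, Irf9 (-0.53, SE 0.12) and Irf2 (-0.53, SE 0.17) were lower, the first not without PMC-306 and the second kept under 4 of 16 alternatives, whereas Irf1 (-0.27, SE 0.12) and the PU.1 gene Spi1 (-0.32, SE 0.12) did not pass. The part of medium, and of the Adgre1 and Ccr2 levels in PMC-306, in any of these differences was not tested.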

How the data were processed

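The authors prepared stranded total RNA libraries, trimmed reads with Trim Galore 0.6.7, aligned them to GRCm39 with STAR 2.7.9a and deposited Salmon 1.5.2 estimated counts per gene and transcript, not normalized, and TPM values, scaled for transcript length and library size. In the deposited tables a spreadsheet had rewritten 3.37% of gene count cells and 3.22% of transcript count cells. They were restored so that each gene equals the sum of its transcripts (largest gap 0). Of all TPM cells, 21.8% were read as having lost their point and were first given a fixed number of decimals. The point was then moved where the counts called for it, in 7 of 80 cells of the members. The rewritten cells do not read as count columns, so limma 3.58.1 in R 4.3.3 was run on log2(CPM + 0.1), moderated along a mean-variance trend, with p-values adjusted by Benjamini-Hochberg over the genes with about 10 counts in enough libraries and 15 in total. The script was first tested on simulated data. Primary libraries differed beyond sampling noise (chi-square per degree of freedom 20.0 to 66.6), so that none was a duplicate. Members and lists were chosen with earlier results of these data known. Named genes are all members, pathway genes that were called and averaged 5 CPM or more, and up to 3 others per role. Gene positions come from GENCODE M39. The rest was computed in Python 3.11.15 using numpy 2.4.6, scipy 1.17.1 and pandas 2.3.3. Transcript TPM values were not used here. The values of 3 pathway genes are not reported here.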

Additional observations from a re-analysis of the deposited data

Results flagged for a closer look

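Among 54 members and named pathway genes searched in the 6 primary cultures, 2 held a library far from the others, where chance alone flags about 1 in 20, or 2.7. Ifi203 stood at 7.65 CPM in male culture 3, with the next highest culture at 0.102 CPM. Il1r2 stood at 99.2 CPM in female culture 1, with the next at 47.3 CPM.

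For 2 of the genes named by the rule the lines lay on opposite sides of the primary range, a difference between the lines that was not tested, since each has 1 library. Dpp9 was below the range in PMC-306 (50.4 CPM) and above it in PMC-303 (63.2 CPM). Sigirr was above it in PMC-306 (14.2 CPM) and below it in PMC-303 (7.12 CPM). Outside that rule and named after their values were seen, Pstpip1 (0 and 10.8 CPM in PMC-303 and PMC-306, primary cultures 0.483 to 8.95 CPM) and Nod2 (0.0823 and 1.23 CPM, primary cultures 0.176 to 1.06 CPM) also lay below the range in PMC-303 and above it in PMC-306.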

How the results depend on the processing

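The 27 pathway genes called in the lines became 12 against the female and 16 against the male primary cultures alone, and 14 to 27 with each library left out in turn, lowest without PMC-306. The 21 lower calls became 13 with total-count scaling, 13 by limma-voom, 7 against female and 11 against male cultures alone, and 10 to 19 with each library left out, 10 without PMC-306 and 13 without PMC-303. The 6 higher calls ranged from 4 to 8 when libraries were left out. Over all genes, 4914 calls became 2108 against female and 3007 against male cultures alone. The 3 members outside the primary range in both lines became 5 with total-count scaling, 5 against male cultures alone, and 3 to 6 with each library left out, 6 without PMC-303, when PMC-306 alone was compared. Of all genes, 31.9% lay above and 32.3% below the range in PMC-306 alone, against 22.9% and 20.1% in both lines. Fewer cultures or 1 line make the rule looser for every gene. Shares of all genes under the other settings were not computed, so nothing is read from these counts or those above the range. Those above the range, 0 at first, became 2 with total-count scaling, 2 on the TPM scale, 2 against male cultures alone and 0 to 3 with libraries left out, where 1 was above without female culture 1 (Nlrp3) and 1 without female culture 2 (Pycard). Gsdmd in PMC-306 lay above the range without female culture 3 or against male cultures alone. Of 400 values of the 25 pathway calls averaging 5 CPM or more under alternatives, 295 kept the call, 105 lost it and 0 changed direction. Of 182 values of the members' folds, 6 moved by more than the spread between primary cultures and 0 changed direction.

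Replicate numbers were taken to name separate cultures, not pairs of a female with a male culture. The correlations of deviations between same-numbered cultures were 0.513, -0.234 and 0.333. Without unmatched pairs beside them, these values cannot decide whether same-numbered cultures shared a batch. A fit with the replicate block called 0 members and 5 genes, against 0 and 6 without it. Depth limits Nlrc4, Il1b and Il18, which had at most 18 counts in any library.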
